A study of Rattus norvegicus with 55 samples.

Results

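The epoxide hydrolases Ephx1 and Ephx2 were followed in rat kidney with 55 Affymetrix arrays of 1 colour, 1 array for the total RNA of each sample. Their members are all probe sets that the platform's annotation gives to either gene, 5 of the 8799 on the array. One of them, M26125_at, reads Ephx1, and 4 of them, rc_AI104882_s_at, X60328_at, X60328_g_at and X65083cds_at, read Ephx2. The pair was selected on measured values, the intensities of the X60328 probe sets of Ephx2, which showed distinct levels alongside those of X56596_at, a probe set of the class II histocompatibility gene RT1-Bb. Those levels are therefore described here without a test.

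All titles read SHR kidney, where SHR usually stands for the spontaneously hypertensive rat, while the descriptions call the animals Wistar-derived. By the stage word in the description, 13 arrays are immature, 14 young and 14 mature, and the 14 arrays that lack such a word form a separate group. The labels give no age, sex, diet, treatment or genotype. Replicate numbers follow the order of the sample identifiers within a group and only name arrays. Nothing in the labels says that arrays within a group stem from different animals, so p-values measure only the spread among these samples, and that spread may be technical.

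Epoxide hydrolases add water to epoxides and turn them into diols. The microsomal enzyme, encoded by Ephx1, sits in the endoplasmic reticulum and is best known for the epoxides that cytochrome P450 enzymes make from drugs and other foreign compounds. The soluble enzyme, encoded by Ephx2, is found in the cytosol and in peroxisomes, and in kidney it is known for hydrolysing the epoxyeicosatrienoic acids, vasodilator and natriuretic lipids that P450 epoxygenases make from arachidonic acid.

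The deposited values were intensities on a linear scale with a trimmed mean of 500.2 to 500.7 on every array. Of 15 kidney marker genes measured, 14 had a median above 500, among them Umod of the thick ascending limb (11446) and the proximal tubule phosphate transporter Slc34a1 (16467), and 4 of 20 markers of other tissues did, including the adipocyte gene Lep (2869), the immune gene Cd74 (4450) and the globin gene Hbb (6163). The liver gene Alb (69.6), the steroidogenic gene Star (19.1) and the T-cell gene Cd3d (22.4) were dim. Of the control probe sets, 42 divided the arrays into 3 array sets, the number 3 being a choice. Array set 1 held 6 immature and 4 mature arrays, array set 2 held 7 immature, 6 young and 6 arrays without a stage word, and array set 3 held the remaining 26. No label names these sets.

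RT1-Bb split the arrays widely. X56596_at lay between 1411.5 and 2381.2 on 12 arrays (median 1740.3) and between 80.1 and 263.0 on the other 43. The array just above 600 therefore read 1411.5 and the array just below it 263.0. Each of the 4 groups contributed 3 arrays to the high side: immature replicates 1, 2 and 3, young replicates 1, 2 and 14, and replicates 4, 8 and 12 both of the mature group and of the group without a stage word. Of these 12 arrays, 6 lay in array set 1 and 6 in array set 2, and 0 of the 26 arrays of array set 3 were among them.

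X60328_at, an Ephx2 probe set, was bright on the same 12 arrays. It read 758.2, 754.7 and 637.5 on the immature arrays above 600, and 368.4, 357.7 and 378.6 on the young ones. It read 654.0, 407.4 and 516.3 on those without a stage word, and 570.2, 750.0 and 485.9 on the mature ones. The other 43 arrays ran from 12.2 to 340.3, so the sides did not overlap. The widest gap between neighbouring log2 values was 0.71, between 126.1 on mature replicate 11 and 216.7 on immature replicate 11, and it left 41 arrays below and 14 above. The 14 were the 12 arrays above 600 and 2 immature arrays, replicate 10 (340.3) and replicate 11 (216.7), on which RT1-Bb was low. A nearly equal gap of 0.62 lay between those 2 values, so where the upper level begins depends on 2 arrays.

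The other X60328 probe set divided the arrays differently. X60328_g_at read 863.1, 783.7 and 644.7 on the immature arrays above 600, and 947.0, 833.4 and 1056.5 on the young ones. On the arrays without a stage word it read 1138.5, 936.4 and 888.4, and on the mature arrays 926.3, 900.8 and 841.3. All 12 were again the brightest of the 55. Its widest gap, 0.65, fell lower, between 167.2 on immature replicate 12 and 271.7 on replicate 11 of the group without a stage word, and left 32 arrays below and 23 above. The 11 further arrays above the gap all had low RT1-Bb.

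Those 11 arrays formed a middle level, which on X60328_at was lower and less separate. They were immature replicates 10 and 11, young replicates 9, 10 and 11, and replicates 7, 11 and 14 both of the mature group and of the group without a stage word. X60328_g_at ran from 271.7 to 565.8 on them (median 420.6), below the lowest of the 12 arrays (644.7) and above the highest of the remaining 32 (16.9 to 167.2, median 35.9). On the 9 of these arrays that were not immature, X60328_at read 40.2 to 126.1, against 12.2 to 112.8 on the 32 arrays below the gap. The medians were 62.7 over the 11 middle arrays and 22.3 over the 32. Of the 32, 29 read at most 37.9, below every middle array, and the other 3 overlapped with the middle level. Both immature arrays of the middle level lay in array set 2 and the other 9 in array set 3, so that stage and array set cannot be told apart within it. With 8 arrays of each group below the gap, each level was spread over all 4 groups.

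**Figure D1:**
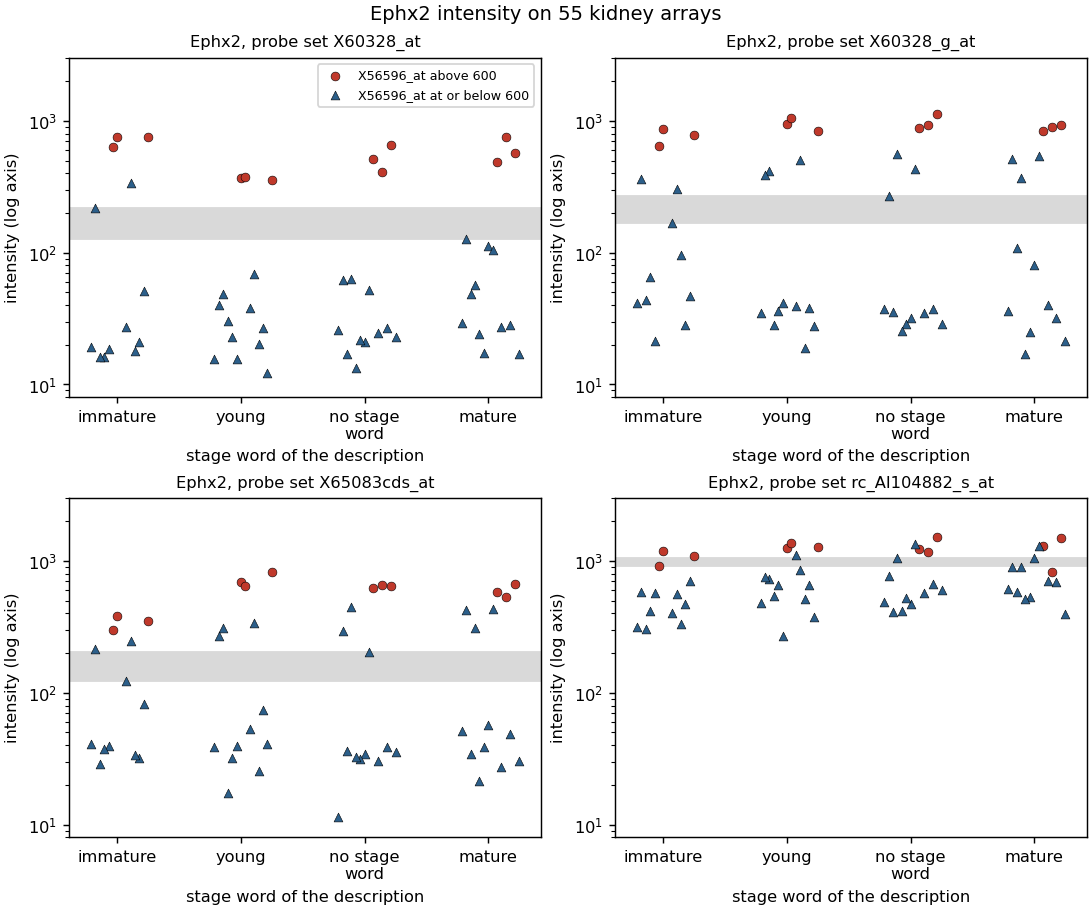
Intensity of the 4 Ephx2 probe sets (log axis) on 55 arrays by stage word, 1 point per array, with red circles for the 12 arrays whose X56596_at exceeded 600 and blue triangles for the other 43; the grey band is the widest gap between neighbouring values. The circles lie above the band for X60328_at, X60328_g_at and X65083cds_at, 11 triangles lie above it for X60328_g_at and X65083cds_at, and rc_AI104882_s_at shows one continuous range.

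X65083cds_at, which comes from another Ephx2 sequence entry, put the arrays in the same order of levels. It read 384.5, 353.4 and 300.8 on the immature arrays above 600, and 688.0, 829.2 and 648.4 on the young ones. On the arrays without a stage word it read 641.2, 660.3 and 629.0, and on the mature arrays 667.1, 537.2 and 577.5. Its widest gap, 0.68, lay between 121.9 and 204.9, and it placed 55 of 55 arrays on the same side as X60328_g_at. X60328_at placed 46 arrays on the same side as either of them. The middle arrays read 204.9 to 446.9 and the 32 low arrays 11.4 to 121.9. Here the top and middle levels overlapped, because the 3 immature arrays above 600 lay inside the range of the middle arrays.

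The fourth Ephx2 probe set, rc_AI104882_s_at, was the brightest on average and had no clear levels. It ran from 828.3 to 1516.0 on the 12 arrays (median 1244.2), from 566.8 to 1354.3 on the 11 (median 858.8) and from 268.8 to 1110.4 on the 32 (median 521.2). The medians followed the order of the other Ephx2 probe sets while the ranges overlapped, and its widest gap was 0.19. Inside the array sets the overlap was smaller. In array set 1 it read 828.3 to 1496.0 on the 6 arrays above 600 and 472.3 to 701.7 on the other 4, and in array set 2 it read 1178.2 to 1516.0 on the 6 and 268.8 to 579.4 on the other 13. The sides did not overlap in either set.

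**Figure D2:**
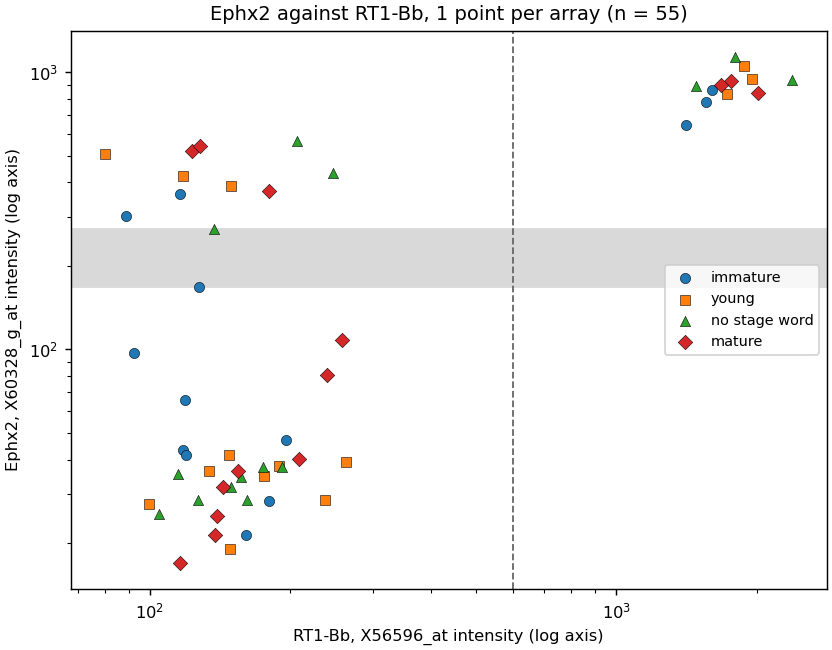
Ephx2 intensity on X60328_g_at against RT1-Bb intensity on X56596_at, both on log axes, 1 point per array and 1 symbol per stage group; the dashed line is 600 and the grey band is the widest gap of X60328_g_at. The 12 arrays to the right read 644.7 to 1138.5, and the 43 to the left divide into 11 arrays at 271.7 to 565.8 and 32 at 16.9 to 167.2.

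The same levels were seen inside array sets. In array set 1, X60328_at read 485.9 to 758.2 on the 6 arrays above 600 and 18.6 to 50.8 on the other 4, and X60328_g_at read 644.7 to 926.3 and 16.9 to 47.2. In array set 2, X60328_g_at read 833.4 to 1138.5 on the 6 arrays above 600 and 25.5 to 362.1 on the other 13, of which 2 were middle arrays. Array set 3 held no array above 600, and its 26 values of X60328_g_at, 19.0 to 565.8, were made up of 9 middle and 17 low arrays. The 3 low arrays that reached the middle level on X60328_at were mature replicate 1 (112.8), immature replicate 4 (50.8) and mature replicate 9 (48.2). Mature replicates 1 and 9 were also the arrays with a GAPDH 3'/5' signal ratio above 3 (7.18 and 3.48), a sign of RNA quality, whose part in these 2 values was not tested.

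The X60328 probe sets carry the same sequence entry in their names, yet their ratio was not constant. On the immature arrays above 600, X60328_at over X60328_g_at was 0.878, 0.963 and 0.989. It was 0.358 to 0.429 on the young arrays, 0.435 to 0.581 on those without a stage word and 0.578 to 0.833 on the mature ones. On the middle level the ratio was 1.13 and 0.598 on the 2 immature arrays and 0.104 to 0.243 on the other 9. The immature arrays thus had the highest ratios at both levels, as a description of few arrays. Only the mature arrays at the top level shared an array set with them, so elsewhere stage and array set cannot be told apart. On the 32 low arrays the order did not hold. There the ratio was 0.164 to 0.464 on the immature arrays of array set 2. It was 0.739 to 1.08 on those of array set 1, and 1.4 and 1.43 on mature replicates 1 and 5.

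Which of the other genes divided the arrays like Ephx2 depended on the probe set. Likeness was measured as the number of the 55 arrays that a gene's best single threshold placed on the same side as the gap of the Ephx2 probe set, with no test, since all values share the same arrays. For X60328_at the most alike were RT1-Db1 (54 arrays), RT1-Bb itself (53), RT1-Ba (53), Cela1 (53) and Ptprj (53). Cyfip2 and Svil tied at 53 and came after these because the gap at their threshold was narrower. At the threshold of RT1-Db1 the gap was only 0.049 in log2, against 2.356 for RT1-Bb, so RT1-Db1 had no separate levels there. RT1-Db1 read 314.9 to 657 on the 12 arrays above 600, 91.8 to 194.9 on the middle arrays and 22.5 to 187.8 on the low ones. A threshold that puts every array on the low side would already reach 41 here, and RT1-Bb took part in the selection of the pair. The RT1 genes encode class II histocompatibility chains, Cela1 a pancreatic-type elastase and Ptprj a receptor tyrosine phosphatase. Cela1 read 911.5 to 1582.9 on the 12 arrays above 600 against 165.5 to 520.5 on the low arrays and 228.6 to 510.7 on the middle ones. Ptprj read 536.6 to 977.9 against 34.4 to 387.2 and 57.2 to 331.6. Both genes therefore separated the 12 arrays from the middle level as well.

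For X60328_g_at and X65083cds_at the list was another one. Spock2, which encodes an extracellular matrix proteoglycan, placed 51 arrays alike but in the opposite direction. It read 20.1 to 64.9 on the 12 arrays above 600 (median 25.2), 16.8 to 47.4 on the 11 middle arrays (median 21.8) and 23.7 to 683.9 on the 32 low arrays (median 237.4). Hba-a3, a globin gene, followed with 49 arrays, Hmox2, the constitutive haem oxygenase, with 48, Ino80e, a chromatin remodelling subunit, with 48 and Il33, a cytokine gene, with 47. From Hba-a3 to Il33 the gaps at the best thresholds were only 0.039 to 0.012 in log2, so these genes had no separate levels there. Il33 read 909.8 to 1748.8 on the 12 arrays and 115.9 to 952.3 on the middle ones. In the RefSeq gene table of assembly GRCr8 none of these genes, nor any of the 5 most like X60328_at, lies on the chromosome of Ephx2.

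The measured neighbours of Ephx2 on its chromosome did not show its levels. Among Adam2, which is next to it on one side, Chrna2, next on the other, Ptk2b, Gulo, Stmn4, Adra1a, Dpysl2, Pnoc and LOC102548944, the best threshold of a probe set placed 33 to 38 of the 55 arrays like X60328_g_at, where a threshold that puts every array on the low side would already reach 32. Clu, the clusterin gene, reached 42, with a median of 958.4 on the 12 arrays above 600, 1446.7 on the middle arrays and 1591.1 on the low ones. These values are a description.

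For rc_AI104882_s_at, likeness was measured by Spearman's rank correlation of log2 values over the 55 arrays, again without a test. The highest belonged to Hmox2 (0.75), RT1-Ba (0.73), RT1-Bb (0.69), Hba-a3 (0.67) and Cela1 (0.63). Inside array set 3, where no array was above 600, the values were 0.44 for Hmox2, -0.02 for RT1-Ba, 0.13 for RT1-Bb, 0.55 for Hba-a3 and 0.02 for Cela1. The likeness to the RT1 genes and Cela1 was thus near 0 in array set 3, while Hmox2 and Hba-a3 kept a positive value.

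Stage was not used to select the probe sets, so the stage comparisons were tested, with limma on log2(intensity + 15.82) over 6555 probe sets and Benjamini-Hochberg adjustment over all of them, 2-sided, at 0.05. Fold changes on this scale understate those of dim probe sets. X60328_at had a mean at the 33.4th percentile and passed the filter on dim probe sets, set at the 25th (a mean log2 of 5.91), through the arrays where it is high: on the 43 arrays at or below 600 its mean was 5.67. X60328_g_at (5.78) and X65083cds_at (5.75) also lay below 5.91 on the 32 low arrays. X65083cds_at stood at the 43.5th, X60328_g_at at the 47.5th, rc_AI104882_s_at at the 80.7th and Ephx1 at the 93.4th percentile. A moderated F test over the 4 groups, which called 28.5% of all probe sets, called Ephx1 (adjusted p = 0.0052) and none of the Ephx2 probe sets (adjusted p = 0.29 to 1). The comparisons with immature kidney share the immature arrays.

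Ephx1 was higher in mature kidney, and in kidney without a stage word, than in immature kidney. M26125_at ran from 1448.2 to 2389.4 in immature kidney (median 2013.9), from 983.1 to 3230.1 in young kidney (median 2426.4), from 1981.3 to 3630.9 without a stage word (median 2600.7) and from 1921.3 to 3938.2 in mature kidney (median 2585.7). The ranges overlapped, and 1 young array, replicate 5, at 983.1, lay below every other array. The log2 mean was 10.93 ± 0.24 (SD, n = 13) in immature, 11.18 ± 0.44 (SD, n = 14) in young, 11.43 ± 0.30 (SD, n = 14) without a stage word and 11.40 ± 0.29 (SD, n = 14) in mature kidney. Mature exceeded immature kidney by 0.47 ± 0.13 (SE; 95% confidence interval 0.22 to 0.73), or 1.39-fold, with a limma adjusted p of 0.0046. The group without a stage word exceeded immature kidney by 0.50 ± 0.13 (interval 0.24 to 0.76), or 1.41-fold, with a limma adjusted p of 0.0024.

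These calls stand against many others. In mature against immature kidney 24.4% of probe sets passed, 678 higher and 921 lower, and in the group without a stage word against immature kidney 27% did. Neighbours in the order of Ephx1 levels did not differ beyond their spread in this fit. Young exceeded immature kidney by 0.25 (limma adjusted p = 0.17, where 18.7% of probe sets passed), mature exceeded young by 0.23 (adjusted p = 0.31, 1.8%), and mature and no stage word were 0.03 apart (-0.03, adjusted p = 0.95, 0.412%). The group without a stage word exceeded young by 0.25 (limma adjusted p = 0.62, 0.229%). The young comparison turned on 1 array: without young replicate 5, young exceeded immature kidney by 0.34 (limma adjusted p = 0.031).

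**Figure D3:**
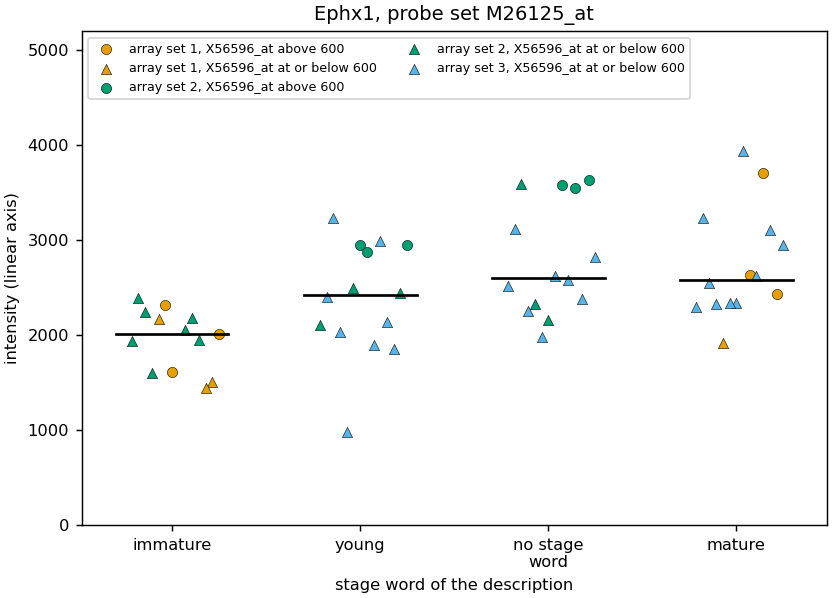
Ephx1 intensity on M26125_at (linear axis from 0) by stage word, 1 point per array, with colour for the array set and circles for arrays whose X56596_at exceeded 600; black lines are group medians. The immature arrays reach 2389.4, the medians of the other groups lie between 2426.4 and 2600.7, and young replicate 5 lies lowest at 983.1.

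The Ephx1 difference was also read inside array sets. With array set as a block, mature exceeded immature kidney by 0.62 (limma adjusted p = 0.0015, where 12.6% of probe sets passed), and the group without a stage word did by 0.54 (adjusted p = 0.0039, 20%). Inside array set 2 the latter difference was 0.59 (limma adjusted p = 0.0017, 43.4%). Inside array set 1, with 6 immature and 4 mature arrays, the difference was 0.51 and did not pass (limma adjusted p = 0.31). There 0.717% of probe sets passed, so few calls could arise. The summed intensity of the 15 kidney markers ran from 56667 to 93116 in immature kidney (median 76650) and from 52116 to 113081 in mature kidney (median 100588). Of these markers, 4 were called higher and 5 lower in mature kidney. The brightest, Slc34a1, Kap and Umod, changed by 0.163, 0.175 and 0.376 and were not called. With array set as a block they changed by -0.389, -0.348 and -0.106. In the sum, stage and array set therefore cannot be told apart. The sum of the other-tissue markers had medians of 17760 and 15129. The part of these in the Ephx1 difference was not tested, and in whole tissue fewer cells of a type and less RNA per cell cannot be told apart.

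Ephx1 had no separate levels, though its medians stood in the same order as those of Ephx2. It ran from 1611.1 to 3705.2 on the 12 arrays above 600 (median 2916.7), from 2179.7 to 3938.2 on the 11 middle arrays (median 2621.4) and from 983.1 to 3590.9 on the 32 low arrays (median 2208.7). The 3 ranges overlapped, and the order is a description. Within the 12, Ephx1 read 1611.1, 2013.9 and 2322.5 on the immature arrays and 2438.8, 3705.2 and 2631.0 on the mature ones. It read 2953.3, 2952.2 and 2881.2 on the young arrays and 3630.9, 3555.1 and 3579.8 on those without a stage word. All 9 arrays of the other groups read above the highest immature one. Mature against immature inside the 12 was 0.55 (limma adjusted p = 0.12, where 5.71% of probe sets passed), young against immature 0.57 (adjusted p = 0.059, 15.6%), and no stage word against immature 0.87 (adjusted p = 0.012, 12.7%). The immature and mature arrays among the 12 lay in array set 1 and the others in array set 2, so in the last 2 comparisons stage and array set cannot be told apart. Inside the other 43 arrays mature exceeded immature kidney by 0.46 (limma adjusted p = 0.015, 28.3%).

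Ephx2 did not pass in any stage comparison of the main fit, which took all arrays without weights or a block. In mature against immature kidney 0 of its 4 probe sets passed in limma, and 1 of them had an unadjusted p below 0.05. In the other 5 comparisons 0 of 20 values passed, and 0 had an unadjusted p below 0.05. These 20 values come from 4 probe sets of 1 gene. Of all probe sets, 24.4% passed in mature, 18.7% in young and 27% in no-stage-word kidney, each against immature kidney. In the remaining comparisons the share was 0.229% to 1.8%, so few calls could arise there. The differences of mature from immature kidney were 0.51 ± 0.24 (SE) on rc_AI104882_s_at (limma adjusted p = 0.11), -0.06 ± 0.60 on X60328_at (adjusted p = 0.96), 0.03 ± 0.70 on X60328_g_at (adjusted p = 0.98) and 0.26 ± 0.60 on X65083cds_at (adjusted p = 0.78). The last 3 standard errors were 0.60 to 0.70, against 0.13 for Ephx1, so these probe sets measured stage differences far less precisely.

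With array weights over all 55 arrays, mature exceeded immature kidney on rc_AI104882_s_at by 0.72 (limma adjusted p = 0.0041). In that fit 3691 of 6555 probe sets passed. The same probe set passed in some of the fits that took the side of 600 into account. With that side as a block, mature exceeded immature kidney by 0.52 (limma adjusted p = 0.022, where 25.4% of probe sets passed). Inside the 43 arrays at or below 600 the immature values ran from 306.6 to 701.7 (median 446.8) and the mature ones from 399.4 to 1291.7 (median 688.5), and the difference was 0.63 ± 0.21 (SE; limma adjusted p = 0.024). The middle arrays are part of those 43. Inside the 12 arrays above 600 the difference was 0.14 ± 0.22 (SE; limma adjusted p = 0.74). With array set as a block the difference was 0.58 and did not pass (limma adjusted p = 0.15, where 12.6% of probe sets passed). Inside array set 1 it was 0.29 and did not pass (adjusted p = 0.74). There 0.717% of probe sets passed, so few calls could arise.

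Inside the 12 arrays above 600, X65083cds_at and X60328_at differed between groups in opposite directions. X65083cds_at, X60328_at and X60328_g_at entered the tests through arrays where they are high, so they are described here without a p-value. X65083cds_at was higher in mature than in immature kidney by 0.75 ± 0.16 (SE), with 537.2 to 667.1 against 300.8 to 384.5. All 6 of these arrays lay in array set 1. X65083cds_at was also higher in young kidney by 1.03 and without a stage word by 0.87. X60328_at read 357.7 to 378.6 on the young arrays against 637.5 to 758.2 on the immature ones, a log2 change of -0.93 ± 0.20 (SE). The change was -0.26 in mature kidney and -0.46 without a stage word, where its values overlapped with the immature ones. X60328_g_at differed from immature kidney by 0.22 to 0.37 in these 3 comparisons, each with a standard error of 0.17. In the comparisons of young arrays and arrays without a stage word with immature ones, array set 2 stands against array set 1, so stage and array set cannot be told apart. Probe sets of the same gene thus gave opposite signs, and these comparisons do not settle whether Ephx2 differed between stages on those arrays.

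**Figure D4:**
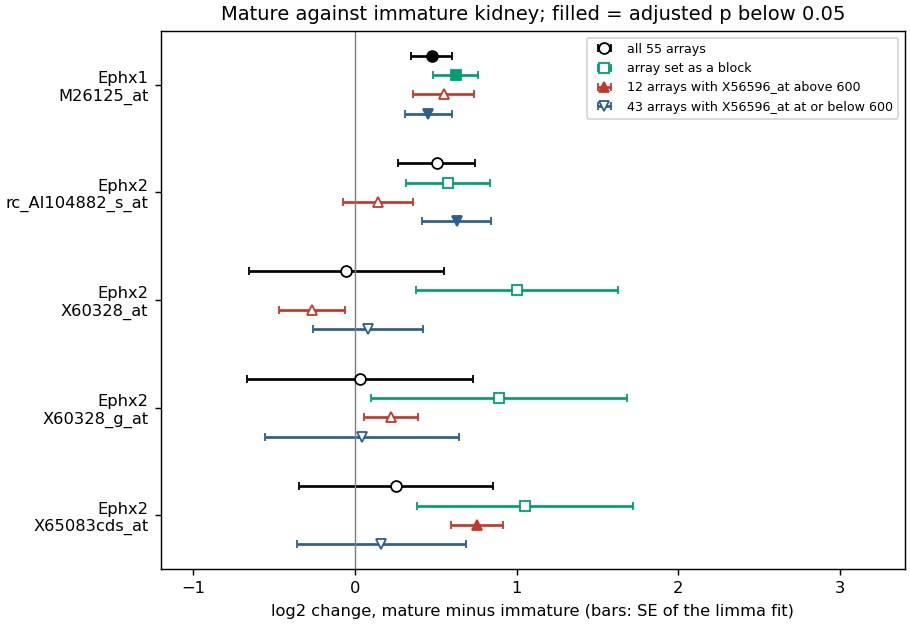
Log2 change from immature to mature kidney for the 5 probe sets, with bars for the standard error of the limma fit; colours give the fit over all 55 arrays, the fit with array set as a block, and the fits inside the 12 arrays above 600 and the 43 others, and filled symbols passed an adjusted p of 0.05. Ephx1 lies between 0.46 and 0.62 in all 4 fits and is open only inside the 12 arrays, while both X60328 probe sets of Ephx2 are open in all 4. Inside the 12 arrays the fill of X60328_at, X60328_g_at and X65083cds_at is not read as a test result.

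The genes around the hydrolases in the epoxide pathway came from lists that were written with earlier results of these data known, and a gene is represented by its brightest probe set. Of 3 genes measured among the epoxide hydrolases and the related leukotriene hydrolase Lta4h, Ephx1 was called in mature against immature kidney, with Lta4h at 0.14 (limma adjusted p = 0.29). Ephx2, represented here by rc_AI104882_s_at, was at 0.51 and not called, while its other probe sets read -0.06 to 0.26. Of all probe sets 24.4% passed.

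Genes that release arachidonic acid moved in different directions. Pla2g2a, a secreted phospholipase A2, rose by 0.95 ± 0.21 (SE) in mature against immature kidney (limma adjusted p = 0.00071). Pla2g4a, the cytosolic phospholipase A2, changed by -0.69 ± 0.15 (SE; limma adjusted p = 6e-04). Both were also called in young kidney (0.69 and -0.45) and without a stage word (1.02 and -0.57), and both remained called in mature kidney with array set as a block (0.65 and -0.73). In young kidney Pla2g4a lost the call with that block (-0.52, limma adjusted p = 0.054).

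The epoxygenase genes, whose products Ephx2 hydrolyses, rose in part. Of the 11 genes measured for release and epoxygenation, 6 were higher and 1 was lower in mature than in immature kidney, with a median change of 0.42, where 24.4% of all probe sets passed. Cyp2c11, a male-specific P450 of rat liver, rose by 4.81 ± 0.26 (SE; limma adjusted p = 1.3e-21). Cyp2c23, the main arachidonate epoxygenase of rat kidney, rose by 0.71 ± 0.20 (SE; adjusted p = 0.0058) and Cyp2c6v1 by 0.68 ± 0.21 (adjusted p = 0.012). The electron donors Por (0.42, limma adjusted p = 0.0085) and Cyb5a (1.41, adjusted p = 0.0072) were higher as well. With array set as a block, Cyp2c11 (5.09, limma adjusted p = 2.3e-21) passed while Cyp2c23 (0.06, adjusted p = 0.85), Cyp2c6v1 (0.36, adjusted p = 0.33), Por (0.29, adjusted p = 0.15) and Cyb5a (0.59, adjusted p = 0.34) did not. Cyp2e1, an ethanol-inducible P450, fell in young against immature kidney by 0.65 and rose in mature against young kidney by 0.74 (limma adjusted p = 4.8e-05), so that mature and immature kidney were 0.10 apart (adjusted p = 0.58).

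Omega-hydroxylases use arachidonic acid along the other P450 route, to 20-HETE. Of 7 measured, 3 were higher and 1 was lower in mature than in immature kidney, where 24.4% of all probe sets passed. Cyp4f6 rose by 0.57, Cyp4f1 by 0.42 and Cyp4a8 by 0.41 (limma adjusted p = 0.012, 0.0042 and 0.0016), and Cyp4b1, which acts on short-chain and foreign substrates, changed by -0.78 (adjusted p = 0.006). Cyp4a8 alone of these 4 passed with array set as a block (0.33, limma adjusted p = 0.042). Cyp4a1 and Cyp4a3 changed in young against immature kidney, by -0.49 and -0.78, and not in mature kidney, where they were 0.02 and 0.07 (adjusted p = 0.95 and 0.87). With array set as a block, Cyp4a3 passed in young kidney (-1.06, limma adjusted p = 0.0032) and Cyp4a1 did not (-0.31, adjusted p = 0.25).

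**Figure D5:**
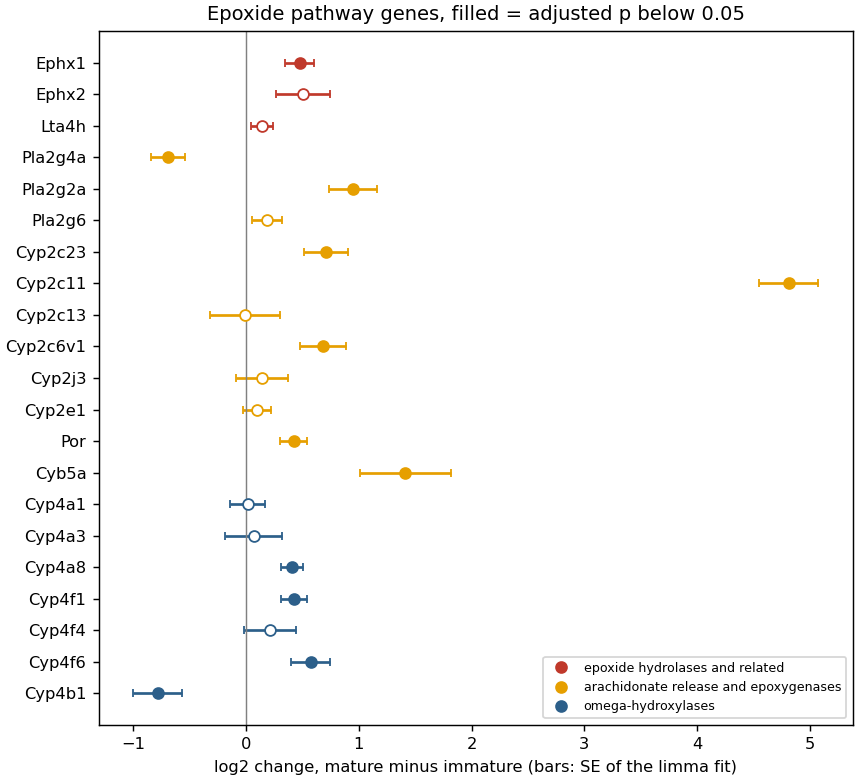
Log2 change from immature to mature kidney for 21 genes of 3 lists, 1 row per gene, with bars for the standard error of the limma fit and filled symbols for an adjusted p below 0.05. Ephx1 at 0.47 and the Ephx2 probe set rc_AI104882_s_at at 0.51 (open, not called) lie below the epoxygenase genes Cyp2c6v1 (0.68) and Cyp2c23 (0.71) and above Cyp2c13 (-0.01), Cyp2e1 (0.10) and Cyp2j3 (0.14), and Cyp2c11 lies apart at 4.81.

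Ephx2 is known as a target of peroxisome proliferators and Ephx1 as a gene of the electrophile response, so both wider groups were counted. Of 21 peroxisomal and PPAR-alpha target genes, 2 were higher and 3 lower in mature than in immature kidney, with a median of 0.01. The D-amino acid oxidase gene Dao rose by 0.46, and the branched-chain acyl-CoA oxidase gene Acox2 (-1.01), the peroxisome assembly gene Pex2 (-0.53) and the membrane protein gene Pxmp2 (-0.41) were lower. The second group joined genes of the electrophile response with other drug metabolism genes. Of these 35 genes, 6 were higher and 5 lower, with a median of 0.12. The glutathione transferase genes Gsta1 (0.99) and Gstp1 (0.62) rose, while Gsta3 (-1.08) and the carboxylesterase gene Ces1d (-1.2) fell. These shares lie near the 24.4% of all probe sets. With array set as a block Dao did not pass (0.21, limma adjusted p = 0.24), and the other 7 genes named here did, Acox2 at -0.57 and Ces1d at -0.76.

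Ephx1 was most like Haao, Pgm1, Abcb6, Cyp2c11 and Gstp1 over the 55 arrays. Their Spearman correlations with it were 0.67, 0.66, 0.66, 0.65 and 0.64, and after the group means were subtracted 0.46, 0.52, 0.59, 0.43 and 0.50. They encode a kynurenine pathway dioxygenase, phosphoglucomutase, a porphyrin transporter, the P450 and the glutathione transferase named above. The values describe these arrays, which share scaling and array sets, and carry no test. The measured neighbours of Ephx1 on its chromosome, among them Parp1, Lbr and Enah, had correlations of -0.31 to 0.20 with it.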

How the data were processed

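The authors deposited an intensity for each of 8799 probe sets per array, linear as judged from the range of the values. Which software summarised and scaled them is not given in the sources used here, and that scaling was kept. Values below 0 were replaced by 0, and log2 was taken after adding 15.82, which is 0.1 of the overall median. The 59 control probe sets and those with a mean below the 25th percentile were left out of the tests, which left 6555. All arrays entered 1 limma 3.58.1 model (R 4.3.3, lmFit and eBayes, no covariate), checked on simulated data. Of all probe sets 7018 carried 1 symbol, 308 several and 1473 none, and 6994 were updated through RefSeq (GRCr8). Array sets came from Ward clustering of 42 control probe sets, cut into 3. The alternatives varied offset, scaling, filter, blocks, subsets, array weights and single arrays. The members and lists were chosen with earlier results of these data known. Genes named were all Ephx1 and Ephx2 probe sets, called members of 3 pathway lists, up to 4 members with the smallest p of each further pathway list, the 5 genes most alike and up to 5 measured neighbours a side. Background per probe set was not analysed, and the number of arrays limits the precision.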

Additional observations from a re-analysis of the deposited data

How the results depend on the processing

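No paired analysis was possible because the numbers in the titles run once through all 55 arrays, so no groups share one. Ephx1 in mature against immature kidney was 0.43 to 0.51 with each array left out in turn (55 of 55 called). It lost the call inside array set 1 (0.51, where 0.717% of probe sets passed) and inside the arrays above 600 (0.55, 5.71%). Of the alternatives run, young against immature passed only without young replicate 5 (0.34, range 0.21 to 0.34). Its differences near 0 changed sign: mature against young was -0.026 inside the arrays above 600, and mature against no stage word was 0.083 with the array set block, 0.116 inside array set 3, 0.054 at or below 600, 0.002 with array weights, 0.11 with the block and without the 2 arrays of high GAPDH ratio, and -0.068 to 0.011 with single arrays left out, the last without mature replicate 5. Ephx2 values near 0 did too, none of them called. X60328_at in mature against immature kidney was 1.003 with the array set block, 0.78 inside array set 1, 0.001 with the side of 600 as a block, 0.079 at or below 600, 0.077 with array weights, 0.93 without the GAPDH arrays and with the block, and -0.28 to 0.19 with single arrays left out (0.19 without immature replicate 1). X60328_g_at was -0.009 with array weights and -0.16 to 0.24 with single arrays left out (-0.16 without mature replicate 4). The other 5 comparisons called 0 of 20 Ephx2 values in the main fit. Inside the arrays above 600 the count was 3, where 1.21% to 15.6% of all probe sets passed. These 3 values belong to X60328_at and X65083cds_at, which entered the tests through arrays where they are high. They are therefore not read as test results. Array weights called 2 of 20, with 73 to 3831 of 6555 probe sets passing in these comparisons. The block without the GAPDH arrays called 1, with 99 to 1887 passing.

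Counts of called probe sets moved most. Mature against immature called 1599, and 829 with the array set block, 47 inside array set 1, 374 above 600 and 3691 with array weights. Young against immature called 1225, and 583 with the block, 1921 inside array set 2 and 2902 with weights. Mature against young called 118, and 29 inside array set 3, 482 above 600, 48 at or below it, 59 without the GAPDH arrays, 260 with weights, 61 (without young replicate 4) to 160 with single arrays left out and 50 in a fit of both groups alone. No stage word against immature called 1773, and 2848 inside array set 2, 834 above 600 and 3831 with weights. No stage word against young called 15, and 3 with median centring, 66 with the block, 1778 inside array set 2, 0 inside array set 3, 79 above 600, 2 at or below it, 33 without the GAPDH arrays, 251 with the block as well, 372 with weights, 8 (without replicate 9 of no stage word) to 23 (without mature replicate 9) with single arrays left out and 76 in a fit of both groups alone. Mature against no stage word called 27, and 15 with median centring, 14 with no filter, 44 with a filter at the 50th percentile, 345 with the block, 14 inside array set 3, 48 with the side block, 146 above 600, 16 at or below it, 73 with weights, 13 (without replicate 1 of no stage word) to 50 (without mature replicate 13) with single arrays left out, 8 in a fit of both groups alone and 851 with the block and without the GAPDH arrays. The causes were not tested.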
